A study of Mus musculus with 4 samples.

Results

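The immunoglobulin kappa locus of the mouse was read by 84 of the 41174 non-control probes of the array, all lying in chr6:67560270-70622273 (mm9). The probes were chosen by position alone, whatever their names said, and the locus itself was selected on earlier results of these same arrays, in which immunoglobulin probes differed between genotypes. The genotype differences at these probes are therefore a description, and the limma counts and standard errors given for them support nothing. RNA came from LSK cells, the bone marrow fraction without lineage markers and with Sca-1 and c-Kit, in which stem cells and early progenitors lie. Meis1-KO LSK cells were from Mx1-Cre-positive Meis1 fl/fl mice and Meis1-WT LSK cells from Mx1-Cre-negative Meis1 fl/fl mice, both on the C57BL/6J background and 4 to 8 weeks old at injection. Both genotypes thus carried the floxed allele, in which exon 8 can be removed. Cre was under the interferon-responsive *Mx1* promoter, so excision follows interferon and is not limited to LSK cells. The labels give 4 intraperitoneal injections of poly(I:C), an inducer of interferon, at 1.5 µg per g and 1-day intervals for both genotypes, whereas the deposited design text and the array methods call the controls sham-treated, and in that case poly(I:C) and genotype cannot be told apart. Cells were collected 1 week after poly(I:C). Each genotype was measured in 2 pools of 6 mice, with 1 array a pool.

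The kappa light chain is one of the chains from which B cells build an antibody. Its locus holds many variable (V) segments, a few short joining (J) segments and 1 constant region. In a maturing B cell the RAG enzymes cut beside a V and a J segment at recombination signals and join them, so that each B cell makes kappa transcripts with 1 V segment. An unrearranged V segment can also be transcribed at a low level, as germline transcript, before it is joined. Plasma cells, the antibody-secreting end of the lineage, hold very large amounts of the rearranged transcript. LSK cells lie upstream of this lineage, and their sort gate excludes lineage markers, B220 of the B lineage among them.

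Of the 84 probes, 41 were annotated as V gene segments by their description, and 24 more by a description that names an immunoglobulin or an antibody light chain. Another 13 had no description, and 6 were annotated as other transcripts. An IGKV segment name could be given to 45 probes, 41 from the description and 4 through the RefSeq gene table, and these named 41 segments of 14 families. Probes with a segment name read the plus strand in 20 cases and the minus strand in 25, since V segments of the kappa locus lie in both orientations.

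The letters of some 60-base probes bear on the kind of RNA that they can bind. The first set holds the bases ACGTTCGG, which several J segments of the mouse carry just after their joined V segment, so that such a probe can bind across a V to J junction. These letters, searched on both strands, were found in 4 of 84 probes (4.76%), against 0.0219% of all probes of the array. In the lines below, capitals mark them.
A_52_P957659 (*Igkv1-117*, chr6:68071786-68071845, plus strand): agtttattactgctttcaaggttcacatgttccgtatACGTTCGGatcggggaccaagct
A_52_P621357 (NAP095777-001, chr6:69254792-69254851, minus strand): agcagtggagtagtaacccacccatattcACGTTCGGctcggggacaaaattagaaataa
A_52_P600555 (X67192, an autoantibody light chain, chr6:69714508-69714567, minus strand): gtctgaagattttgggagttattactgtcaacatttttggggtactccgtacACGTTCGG
A_52_P664842 (*Igk-V19-14*, IGKV6-14, an anti-DNA light chain, chr6:70356453-70356512, minus strand): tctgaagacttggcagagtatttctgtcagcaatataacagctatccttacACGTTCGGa

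The second set holds the heptamer CACAGTG, the start of the recombination signal that borders an unjoined V segment and is lost from it by joining. It was found in 7 of 84 probes (8.33%), against 1.27% of all probes on both strands, and no probe held both sets of letters. In 1 of the 7, the probe of IGKV4-86, the letters lie at base 12 of a probe that spans a gap on the genome, so that there they do not border the end of a V segment. The 3 probes shown, with the heptamer in capitals, are those that lie in 1 piece on the genome and were well above background on 3 or 4 arrays.
A_52_P538080 (NAP096170-001, chr6:67560473-67560532, plus strand): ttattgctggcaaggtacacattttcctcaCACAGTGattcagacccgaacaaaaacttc
A_52_P234478 (NAP017905-001, chr6:68784830-68784889, minus strand): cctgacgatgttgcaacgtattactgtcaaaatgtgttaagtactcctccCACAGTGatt
A_52_P39164 (LOC676193, chr6:70468794-70468853, plus strand): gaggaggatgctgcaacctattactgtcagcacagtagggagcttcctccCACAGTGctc

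The third set is 1 probe. It lies among the V segments and is annotated as a kappa light chain of a monoclonal antibody, but its letters resemble the constant region of the mouse kappa chain, as known from textbook knowledge and not checked here against a genome. It shared at most 11 bases in a row with any other probe of the locus.
A_52_P238230 (AF152371, chr6:68207137-68207196, plus strand): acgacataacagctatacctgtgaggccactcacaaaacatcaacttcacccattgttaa

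All levels below are log2 signals relative to the 75th percentile of the same array, so 0 is the level of that percentile and 1 unit is 2-fold. A spot was called well above background by the scanner software, and otherwise is called dim. The first replicates of both genotypes were hybridized on slide 1 and the second replicates on slide 2, so that genotype can be compared within each slide. The second Meis1-KO array was the dimmest of the 4, with a 75th percentile of 90.3 intensity units, against 147 to 154 on the others. Of all probes, 49.3% to 57.3% were well above background on an array. *Meis1*, the targeted gene, was lower in Meis1-KO at its brightest probe on both slides, at 0.25 and 0.22 against 1.02 and 1.45, but the position of this probe relative to exon 8 was not analysed here.

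The kappa locus gave signal in LSK cells of both genotypes. Of its 84 probes, 59 were well above background on the first Meis1-KO array (70.2%), 71 on the second (84.5%), 74 on the first Meis1-WT array (88.1%) and 69 on the second (82.1%). On all 4 arrays, 55 probes were well above background, 13 were on 3 arrays, 5 on 2, 4 on 1 and 7 on none. Those 7 were IGKV2-112, IGKV1-99, NAP062336-1, NAP020114-001 and the cDNAs AK089526, AK089634 and AK089910. In bulk RNA, fewer kappa-expressing cells and less kappa RNA per cell cannot be told apart.

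The array with the lowest kappa signal was the first Meis1-KO array. It held the lowest of the 4 values in 53 of the 77 probes that were measured on at least 1 array, and the highest in 0. The second Meis1-KO array held the highest value in 33 of them, the first Meis1-WT array in 29 and the second in 15. Relative to each probe's own mean, the median probe lay at -1.51 on the first Meis1-KO array, 0.74 on the second, 0.54 on the first Meis1-WT array and 0.00 on the second. With this scaling the 2 Meis1-KO pools lay on opposite sides of the controls for the median probe. Without scaling between arrays the median difference on slide 2 was -0.07, against 0.70 with it, so the side of the second pool rests on the scaling of the dimmest array. Of 77 measured probes, 73 were lower on the first Meis1-KO array than on the second. These rankings include dim values, and no share of all probes is given for them. Dim values can also differ between the arrays. IGKV2-112, dim on all 4, was at -6.32 on the first Meis1-KO array and at -5.39 on the second.

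**Figure D1:**
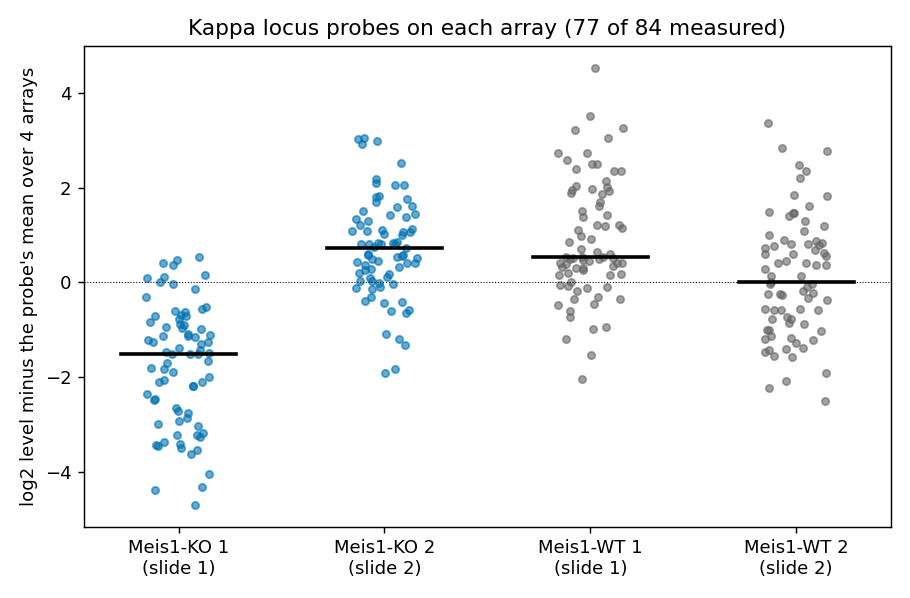
Log2 level of each measured kappa locus probe minus its mean over the 4 arrays (77 probes, points, with random horizontal spread), by array, Meis1-KO in blue and Meis1-WT in grey. The black bars are medians, at -1.51, 0.74, 0.54 and 0.00 from left to right, and the first Meis1-KO array lies below the others.

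The Meis1-KO pools were further apart at these probes than the genotypes were, and the Meis1-WT pools less far apart. Among the 55 probes on all 4 arrays, the median absolute gap between the 2 Meis1-KO pools was 2.31, against 0.65 for the 18860 probes of the whole array in the same state. Between the 2 Meis1-WT pools it was 1.22, against 0.35. Within slide 1 the 2 genotypes were 1.81 apart, against 0.19, and within slide 2 they were 1.37 apart, against 0.57. Of the 69 kappa probes tested, 51 had Meis1-KO pools further apart than the genotype means were.

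On slide 1 nearly all kappa probes were lower in Meis1-KO, and on slide 2 more were higher than lower with this scaling. To compare within a slide, a dim spot was set to the higher of its own value and the lowest value well above background on that array, and a probe that was dim in both genotypes on that slide was left out. On slide 1, 69 of 74 probes were lower in Meis1-KO and 5 were higher, with a median difference of -1.97. A fall of more than 2-fold was seen in 55 of these 74 probes, while such a fall was found in 3.91% of all probes. On slide 2, 45 of 75 probes were higher in Meis1-KO and 30 were lower, with a median difference of 0.70. The share of all probes higher or lower on a slide, whatever the size, is not given here. Tested probes of the whole array also leaned upward on slide 2, with a median of 0.13, against 0.69 for the tested kappa probes. Their slide 1 median was 0.03, against -2.02 for the tested kappa probes. A rise of more than 2-fold was seen in 30 of 75, against 14.3% of all probes, and a fall of that size in 16, against 12.1%. In 1 probe on each slide, IGKV7-33 on slide 1 and IGKV12-98 on slide 2, the bound of the dim Meis1-KO spot lay above the control's signal, so it counts as higher here though its own value was lower. With spots at their own values the counts were 70 lower on slide 1 and 44 higher on slide 2.

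The opposed direction was common among the members. Of 72 probes measured on both slides, 38 were lower in Meis1-KO on slide 1 and higher on slide 2, 29 were lower on both, 5 were higher on both and 0 were higher on slide 1 and lower on slide 2. The same split of all probes is not given here. In 19 probes the difference exceeded 2-fold in opposite directions, which held for 0.409% of all probes measured on at least 1 array. In 15 probes Meis1-KO was lower by more than 2-fold on both slides, against 0.757% of all probes. With each spot at its own value, Meis1-KO was lower on both slides in 31 of 77 measured probes, against 20.8% of all probes, and both Meis1-KO arrays lay below both Meis1-WT arrays in 22 of 77, against 10.7%. Both lay above in 3 of 77, against 15.5%, and the genotypes overlapped in the other 52. The number of probes higher on slide 2 depends on the scaling, because without any scaling between arrays the median of all tested probes on slide 2 moved by -0.77. The count with spots at their own value was 44 of 75 with the scaling used here and 35 without it.

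**Figure D2:**
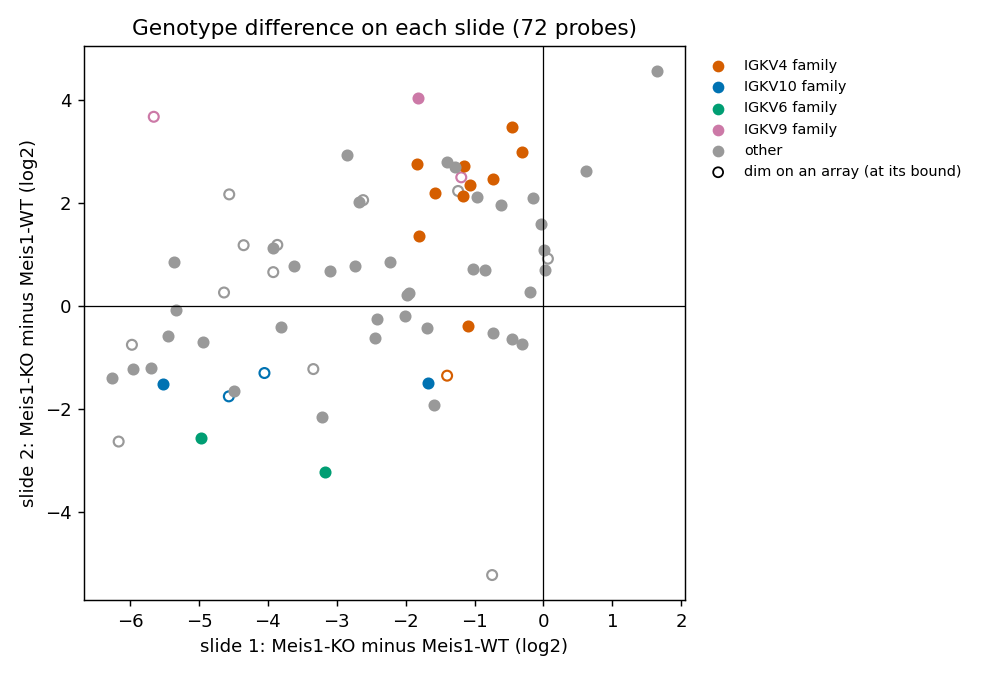
Meis1-KO minus Meis1-WT (log2) on slide 1 (horizontal) and on slide 2 (vertical) for the 72 kappa locus probes measured on both slides, coloured by V family, with open points for probes dim on at least 1 array. Most points lie left of 0, and they spread from -5.22 to 4.55 on slide 2.

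Several named falls lay late in the locus or in the IGKV10 cluster. LOC676175, annotated as similar to a joined V and J chain (A_52_P422297, chr6:70407505-70407564, minus strand), had levels of -5.02, which was dim, and -1.04 in Meis1-KO, and of 1.96 and 1.59 in Meis1-WT. Its difference was -4.80 with a standard error of 1.21, and both Meis1-KO values lay below both controls. IGKV6-25 (A_52_P186262, chr6:70165770-70165829, plus strand) was at -0.71 and 1.61 in Meis1-KO and at 2.47 and 4.83 in Meis1-WT. The difference was nearly the same on each slide, -3.17 and -3.22. *Igk-V19-14*, whose probe crosses a V to J junction, was at -3.63 and 0.71 against 1.34 and 3.27, and its genotypes did not overlap.

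4 IGKV10 probes read the segments IGKV10-94, IGKV10-95 and IGKV10-96, which neighbour each other at chr6:68581976-68654719. All 4 were lower in Meis1-KO on slide 1, with a median difference of -4.31, and on slide 2, with a median of -1.50. IGKV10-94 (A_52_P544433) was at -3.68 and -3.18 in Meis1-KO, the second of these dim, and at 0.89 and -1.43 in Meis1-WT. IGKV10-95 (A_52_P544435) was at -3.79 and -0.31 against 1.74 and 1.21. IGKV10-96 was read by A_52_P1190151, at -4.38 (dim) and -2.78 against -0.15 and -1.48, and by A_52_P560578, at -2.38 and -0.98 against -0.71 and 0.51. In all 4 probes both Meis1-KO values lay below both Meis1-WT values.
A_52_P544433 (IGKV10-94, chr6:68654660-68654719, minus strand): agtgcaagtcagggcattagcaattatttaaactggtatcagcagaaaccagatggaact
A_52_P1190151 (IGKV10-96, chr6:68582096-68582155, minus strand): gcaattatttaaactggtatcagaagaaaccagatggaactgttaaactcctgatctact
These probes shared a run of 23 bases, and whether each binds RNA of the other segment was not tested.

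Several probes at chr6:69714508-70024104 were also lower on both slides. LOC100047053, similar to a monoclonal antibody light chain (A_51_P305262, chr6:70024045-70024104, minus strand), was at 0.01 and 2.62 in Meis1-KO and at 6.28 and 4.01 in Meis1-WT. Its other probe, A_52_P112190, was at -3.67 and 0.84 against 1.69 and -0.01, so that the second probe of the same gene was lower on slide 1 and higher on slide 2. LOC100046973 (A_52_P337690, chr6:69725886-69725945, minus strand) was at -1.08 and 2.23 against 4.88 and 3.45. X67192, which crosses a junction, was at -2.40 and 1.07 against 2.09 and 2.72, and U26474, the light chain of a nucleosome-reactive antibody (A_51_P216387), was at -2.35 and 1.29 against 3.35 and 2.50. IGKV12-41 was read by 2 probes that gave -5.45 and -4.94 on slide 1 and -0.58 and -0.70 on slide 2. NP061611, an antibody fragment built to bind a toxin (A_52_P589808), was dim on both Meis1-KO arrays and at -0.70 and -2.03 in Meis1-WT. With this background treatment its mean was at least 4.86-fold lower in Meis1-KO, with bounds of -3.34 on slide 1 and -1.22 on slide 2. With normexp background correction the difference was smaller, as given below. Although it lies in the kappa interval by the array's annotation, its letters resemble the joined variable region of a heavy chain, from textbook knowledge and not checked against a genome, so it may not read kappa RNA.
A_52_P589808 (NP061611, chr6:69599142-69599201, minus strand): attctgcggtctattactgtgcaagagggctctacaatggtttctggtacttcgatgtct

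The IGKV4 family showed opposite directions on the 2 slides. In the mouse it is a large group of closely related segments, and 10 of its 11 probes lay between IGKV4-86 and IGKV4-51. On slide 1 all 11 were lower in Meis1-KO, with a median difference of -1.16, and on slide 2, 9 of 11 were higher, with a median of 2.34 over all 11. The second Meis1-KO array held the highest value in 9 of the 11, and the lowest was on the first Meis1-KO array in 6 and on the second Meis1-WT array in 5. IGKV4-58 (A_52_P546162, chr6:69450383-69450442, minus strand) was at -0.60 and 2.04 in Meis1-KO and at -0.14 and -1.44 in Meis1-WT, the largest difference of the family on slide 2, 3.47. IGKV4-51 (A_52_P618728, chr6:69631546-69631605, minus strand) was at -1.13 and 1.74 against -0.82 and -1.24. In both, the second Meis1-KO array lay above the other 3. IGKV4-91 and IGKV4-86 were the members of the family that were lower on both slides, and they were also the nearest to the IGKV10 cluster. With each of the 6 other treatments of the signal, 9 IGKV4 probes were higher in Meis1-KO on slide 2.
A_52_P546162 (IGKV4-58): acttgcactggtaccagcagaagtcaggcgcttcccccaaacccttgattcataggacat
A_52_P618728 (IGKV4-51): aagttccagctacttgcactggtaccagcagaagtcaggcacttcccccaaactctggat
The pair shared a run of 29 bases, and 6 of the 11 IGKV4 probes shared at least 20 bases in a row with another member.

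The opposed direction was most uniform in the middle of the locus. In windows of 500 kb from the first probe, the window from 1500 to 2000 kb held 11 probes, all of them well above background on all 4 arrays. Here 11 of 11 were lower in Meis1-KO on slide 1, with a median of -1.29, and 11 of 11 were higher on slide 2, with a median of 2.46. The window before it held 10 probes, of which 10 were lower on slide 1 (median -3.96) and 7 were lower on slide 2 (median -0.84). The window after it held 19 probes, of which 14 of 15 measured were lower on slide 1 (median -4.56) and 9 of 16 were lower on slide 2 (median -0.60). The first, second and sixth windows had medians of -1.69, -2.74 and -0.80 on slide 1 and of 0.21, 0.81 and 0.27 on slide 2. The last window held 2 probes, lower on both slides. Neighbouring probes share sequence and families, so the windows are not independent of the family names.

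**Figure D3:**
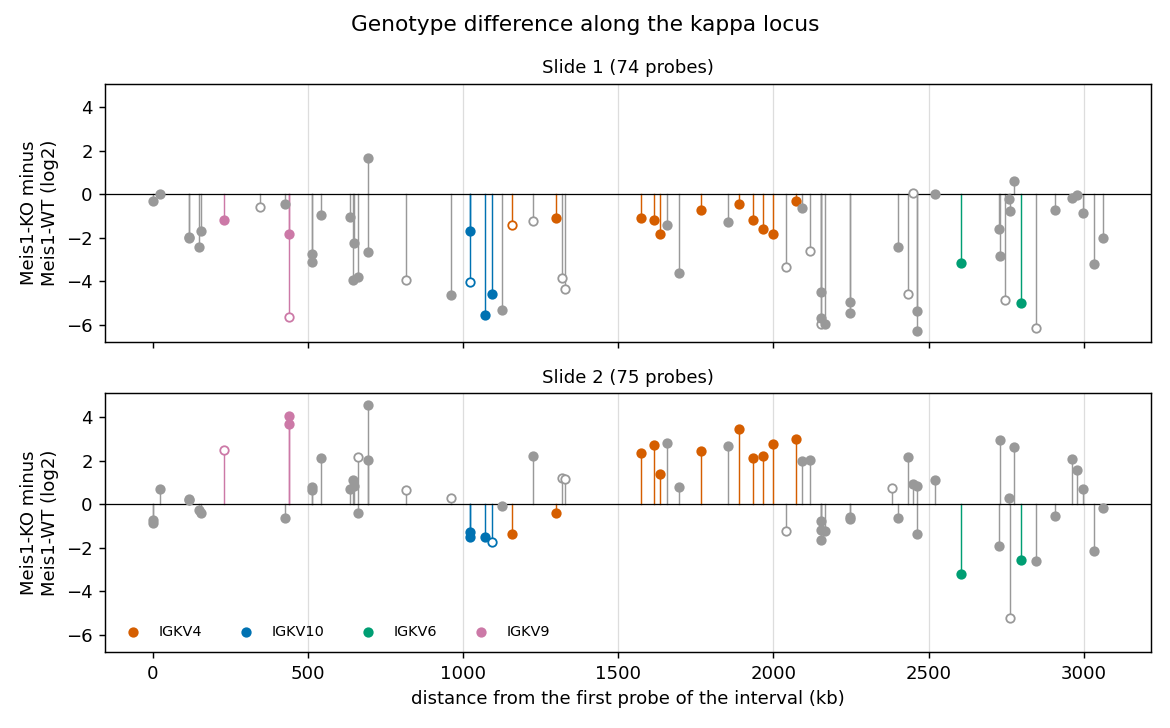
Meis1-KO minus Meis1-WT (log2) of each measured kappa locus probe against its distance in kb from the first probe, on slide 1 (top, 74 probes) and slide 2 (bottom, 75 probes), with open points where 1 of the 2 spots was dim. Between 1500 and 2000 kb all 11 probes are below 0 on slide 1 and above 0 on slide 2, and the IGKV10 and IGKV6 probes are below 0 on both.

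Other families were read by few probes. The 3 IGKV9 probes were lower on slide 1 and higher on slide 2 by 2.49 to 4.04. Both probes of IGKV9-120 had this pattern: A_52_P444260 was at -5.76 (dim) and 1.87 in Meis1-KO and at 1.45 and -1.80 in Meis1-WT, and A_52_P568226 (Gm5571) was at -1.78 and 0.73 against 0.04 and -3.31. Among the 3 IGKV12 probes, all were lower on slide 1, with differences of -5.45 to -4.64. On slide 2 both probes of IGKV12-41 were lower, and IGKV12-98 (A_52_P21066) was at -4.76 (dim) in Meis1-KO and at -3.51 in Meis1-WT. The 3 IGKV3 probes, at the end of the locus, were lower on slide 1 with a median of -0.15 and 2 of them were higher on slide 2, with IGKV3-10 (A_52_P374653) at 5.02 and 5.67 against 5.18 and 3.58 and IGKV3-9 (A_52_P157837) at 2.79 and 2.83 against 2.82 and 1.24. The third, IGKV3-4 (A_52_P502849), is the last probe of the interval, and was at 2.31 and 4.24 against 4.33 and 4.44. The first probe, IGKV1-135 (A_52_P538084), was at -5.98 and -1.42 against -4.24 and -0.55, and was dim on both arrays of slide 1.

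Few probes were higher in Meis1-KO on both slides, those of IGKV8-16 and 1 of the 2 of LOC100046496 among them. NAP029125-1 and NAP113085-1 were higher on slide 2 and level on slide 1, where their differences of 0.02 and 0.0003 turn in sign with median scaling, which moves slide 1 by -0.06. LOC100046496, similar to a kappa V region, had A_51_P196174 (chr6:68253099-68253158, plus strand) at 0.19 and 3.05 in Meis1-KO and at -1.47 and -1.50 in Meis1-WT, with both Meis1-KO values above both controls and a difference of 3.103 (standard error 0.92). Its other probe, A_52_P685727, was at 0.26 and 2.25 against 2.93 and 0.23, and was lower on slide 1. The first of these shared 37 bases with the probe of IGKV2-109 (A_52_P630429), which was at 0.79 and 3.25 against 1.75 and 1.14, so the probe, the other probe of the same gene and the probe with the most similar letters did not show 1 pattern.
A_51_P196174 (LOC100046496): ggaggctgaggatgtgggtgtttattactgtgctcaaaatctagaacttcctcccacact
A_52_P630429 (IGKV2-109): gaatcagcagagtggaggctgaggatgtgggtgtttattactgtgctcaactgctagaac
IGKV8-16 (A_52_P400905) was at -1.54 and -0.999 against -2.15 and -3.63, and its genotypes did not overlap. IGKV7-33 (A_51_P450788), with -6.47 (dim) and -0.75 against -4.27 and -1.67, has no direction on slide 1. NAP113085-1 was at 1.90 and 3.06 against 1.90 and 1.96. IGKV9-129 (A_51_P516323) had a mean difference of 1.35, with values of -2.65 and -1.22 against -1.46 and -5.12, the last one dim. NAP100137-001 (A_52_P240342) was well above background only on the second Meis1-KO array, at -1.54.

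The probes crossing a V to J junction and the heptamer probes can be set beside each other, since only the first hold letters of a J segment. All 4 probes with the J letters searched for were lower in Meis1-KO on slide 1, with differences of -4.98 to -2.74. On slide 2, *Igkv1-117* and NAP095777-001 were higher, by 0.77 and 0.78, and X67192 and *Igk-V19-14* were lower, with differences of -1.64 and -2.56. *Igkv1-117* was at -1.49 and 0.55 against 1.25 and -0.22, and NAP095777-001 was at -0.01 and 3.86 against 3.61 and 3.08. Among the heptamer probes shown, A_52_P538080 was at -2.57 and -0.57 against -2.26 and 0.15, A_52_P39164 at 1.72 and 0.15 against 2.45 and 0.68, and A_52_P234478 at -5.90 (dim) and 0.56 against -2.97 and -1.67. The first 2 of these differed by less than 1 unit on each slide. Among the other heptamer probes, NAP012952-001 (A_52_P422275) was at -5.74 (dim) and -2.69 against -0.28 and -3.35 (dim), NAP013659-001 (A_52_P655763) was dim except at -3.61 on the first Meis1-WT array, and NAP020114-001 was dim on all arrays. The search for the J letters can miss a junction. A_52_P568226 (Gm5571) ends in letters that X67192 holds at its junction, and its differences were -1.82 on slide 1 and 4.04 on slide 2. With so few probes, no difference between the sets was tested.

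The probe with constant region letters, AF152371, was at 6.42 and 8.74 in Meis1-KO and at 8.64 and 7.90 in Meis1-WT. The differences were -2.22 on slide 1 and 0.85 on slide 2, and the genotypes overlapped. LOC675735 (A_51_P390937), described as a hypothetical transcript and lying beside it, was at 1.95 and 5.54 against 5.87 and 4.42. In both, the first Meis1-KO array was lowest and the second Meis1-WT array next. The probe of LOC675735 shared 22 bases in a row with that of IGKV10-95, and whether it binds V segment RNA was not tested. NAP029125-1 (A_52_P180972), which had no description, was at 4.31 and 6.08 against 4.29 and 5.38, and LOC100047222, similar to the variable light chain of an antibody (A_52_P614207), was at 4.08 and 5.81 against 4.92 and 5.12. Of the probes annotated as other transcripts, BC051162 was at -0.68 and 0.37 against 0.35 and -0.34, BC055911 at 1.11 and 2.07 against 1.72 and 0.11, and the 3 cDNAs named above were dim on all arrays. The letters of BC055911 resemble those of the IGKV4-57-1 probe, so it too may read V segment RNA, which was not tested.

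**Figure D4:**
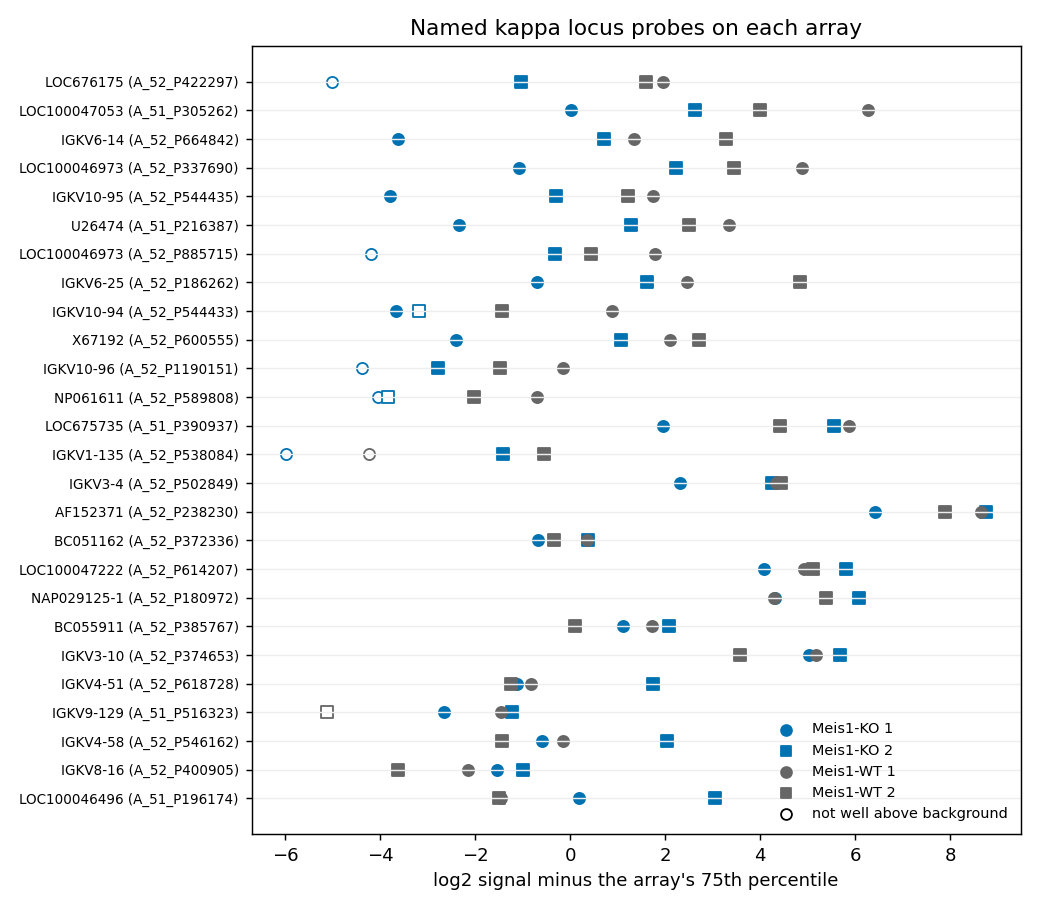
Log2 signal relative to the array's 75th percentile for the named kappa locus probes that were measured on at least 1 array, ordered by the mean genotype difference, with Meis1-KO in blue, Meis1-WT in grey, circles for slide 1 and squares for slide 2, and open marks for dim spots. The first Meis1-KO array is leftmost in most of the upper probes, and the second Meis1-KO array is rightmost in the IGKV4 probes.

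Several probes shared letters. A run of at least 20 bases was shared by 29 pairs, made from 30 of the 84 probes, with runs of up to 41 bases. On slide 1, where most members were lower, 1 of 28 measured pairs differed in sign, and on slide 2, 8 of 29 did, from which no effect of the shared letters is read. The longest run, 41 bases, was shared by IGKV1-133 (A_51_P414879) and *Igk-V* (A_52_P829560), which overlap on the genome. IGKV1-133 was at -0.15 and 2.31 against 1.80 and 2.06, and *Igk-V* was at 0.08 and 2.14 against 2.07 and 1.93. Since cross-hybridization between V segments was not tested, a value belongs to the probe and not with certainty to the segment that it is named for.

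Probes of opposite strands were also compared. A_51_P216387 (U26474) overlaps A_52_P885715 (LOC100046973) on the genome in the opposite orientation, at chr6:69714705-69714764 and chr6:69714667-69714726. The second was at -4.20 (dim) and -0.31 in Meis1-KO and at 1.77 and 0.44 in Meis1-WT, so that both were lower in Meis1-KO on both slides, on either strand. A_51_P164043 (U26471, chr6:68221140-68221199, minus strand) shared 26 bases with A_52_P685727 in the opposite orientation, and was at 2.57 and 4.67 against 6.38 and 5.08.

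Just outside the interval, LOC100047628, a predicted transcript similar to an antibody light chain, was at 0.95 and 2.62 in Meis1-KO and at 1.79 and 2.61 in Meis1-WT. L18942 (A_52_P61243), a joined light chain whose 2 ends lie at chr6:70654131-70672577, was at -1.87 and 3.20 against 2.81 and 4.85, lower in Meis1-KO on both slides. On the other side, 4930515G16Rik, which is no immunoglobulin gene, was well above background on 3 arrays, and NAP105236-1, annotated as a kappa light chain, was dim on all 4.

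The study's criteria were a difference over 2-fold with an unadjusted p below 0.01. By them, limma called 4 of the 69 tested probes of the interval lower in Meis1-KO, while 0.6% of all 22006 tested probes were called lower. These were IGKV10-94, IGKV10-96 (A_52_P1190151), NP061611, whose letters resemble a heavy chain, and LOC676175, with differences of -3.16, -2.76, -2.58 and -4.80. Their spots were dim on 1 or both Meis1-KO arrays, and with normexp background correction the differences shrank to -1.09, -0.66, -0.35 and -2.43. It called 0 higher, against 0.136% of all tested probes. An unadjusted p under 0.05 in limma was found for 17 lower and 2 higher members. Of all 22006 tested probes, 618 had one in either direction, and their split by direction is not given here. The methods' t-test gave 0 higher members at that threshold, and its lower members are not given here. With the slide as a block, 20 of 69 were called lower, against 1.4% of all tested probes, and 1 was called higher, LOC100046496 (A_51_P196174), against 0.591%. After Benjamini-Hochberg adjustment over all 22006 probes, limma without the block called 0 at an adjusted p under 0.05, of members or others. With the block, 2 members had an adjusted p under 0.05 in limma, IGKV6-25 (0.0373) and *Igk-V19-14* (0.0480). The number among all tested probes with the block is not given here. Because the locus was picked from this contrast, nothing is read from these counts. Of the 69 tested probes 47 were lower in Meis1-KO, with a median difference of -0.85 against 0.08 for all tested probes, and over all 84 the median was -0.71. These medians rest on 1 array: without the first Meis1-KO array they were 0.37 and 0.39, and without the second they were -2.07 and -1.97. With 2 arrays a genotype, an exact permutation test of a single value could not give a two-sided p below 0.333, and what varies between arrays is the pool, the amplification and the hybridization together.

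Of immunoglobulin genes away from the kappa locus, 67 probes were listed by name or description, 51 on chromosome 12, which holds the heavy chain locus, 11 on chromosome 16, which holds the lambda locus, and 5 without a position. Of these 67, 60 were lower in Meis1-KO on slide 1 and 42 on slide 2, with medians of -3.43 and -0.21. By the criteria, 16 of 60 tested were called lower and 0 higher, against 0.6% and 0.136% of all tested probes, and 24 and 0 with the slide as a block, against 1.4% and 0.591%. In the summed signal, where 1 is the 75th percentile of an array, they had 75.2 and 242 in Meis1-KO and 1181 and 284 in Meis1-WT. The kappa probes had sums of 221 and 913 in Meis1-KO and of 974 and 582 in Meis1-WT, and without AF152371 sums of 136 and 484 against 574 and 344. Both sums were lowest on the first Meis1-KO array.

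Markers of cells that make antibody were also lower in Meis1-KO on slide 1. The list of 16 plasma cell genes was lower in Meis1-KO in 16 of 16 on slide 1 and in 5 of 16 on slide 2, with medians of -1.72 and 0.27. The count on slide 2 includes *Prdm1*, which was dim on both arrays there and so has no direction. *Sdc1*, *Ell2*, *Slamf7* and *Irf4* were lower in Meis1-KO on both slides. The summed signal of the list was 80.2 and 172 in Meis1-KO and 130 and 90.9 in Meis1-WT, and 13 to 16 of its genes were well above background on an array. The largest part of this sum was *Sdf2l1*, which encodes a chaperone partner found in many cell types and was at 5.57 and 6.73 against 5.73 and 5.54. *Igj*, the joining chain of secreted antibody, was at 1.38 and 4.34 against 4.27 and 3.30, lowest on the first Meis1-KO array as AF152371 was. *Tnfrsf17*, a receptor of plasma cells, was at -5.23 (dim) and -0.27 against -0.17 and -2.00, and *Mzb1*, a chaperone of antibody assembly, at -3.79 and -0.12 against 0.42 and -0.92. *Sdc1*, the plasma cell surface marker syndecan-1, was at -2.09 and -0.24 against 1.02 and 0.04. None of these 4 was called by the criteria, and 1 of 15 tested genes of the list was called lower, *Ell2*, at -1.66 and -2.44 against -0.16 and -0.41. With the slide as a block 3 were called lower. Of all tested probes, 0.6% were called lower without the block and 1.4% with it. Their part in the kappa result was not tested.

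The list of B lineage genes had a lower summed signal than the plasma cell list on each array. Most of the plasma cell sum came from *Sdf2l1* and *Creld2*, so these sums do not rank the cell types. Of 23 genes, each read by 1 probe, 9 to 14 were well above background on an array. The summed signal was 22.8 and 19.2 in Meis1-KO and 46.8 and 20.3 in Meis1-WT. *Igll1* counts as dim on all 4 arrays by its listed probe. Its other probe, A_52_P493519, was well above background on all 4, at -1.35 and -1.65 against -0.30 and -1.38. *Cd79a*, a signalling chain of the B cell receptor, was dim on both arrays of slide 2, and *Pax5*, *Blk*, *Cd22*, *Spib*, *Cr2* and *Fcer2a* were dim on all 4. *Ms4a1*, which encodes CD20 of mature B cells, was well above background on the second Meis1-KO and the first Meis1-WT array only, at -1.71 and -2.14. *Vpreb1*, part of the surrogate light chain of pre-B cells, was at 3.35 and 2.75 against 3.97 and 2.57. *Pou2af1*, a coactivator of immunoglobulin transcription that plasma cells also express, was at 1.34 and 2.29 against 4.14 and 2.07. By the criteria 0 of 9 tested genes were called in either direction, with or without the slide as a block.

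The machinery that joins V and J segments was read by 14 genes, of which 12 were tested, and 0 met the criteria in either direction, with or without the block. The median differences were -0.24 on both slides. *Rag1*, which cuts at the recombination signal, was at -2.49 and -2.90 in Meis1-KO and at -1.29 and -2.52 in Meis1-WT, while *Rag2*, its partner, was dim on all 4 arrays. *Dntt*, which adds bases at the junctions, was at 5.40 and 4.62 against 6.56 and 5.82, lower in Meis1-KO on both slides. Among 19 regulators of the kappa locus, 0 of 16 tested were called by the criteria. With the block 1 was called lower, against 1.4% of all tested probes, and medians were 0.00 and -0.63. *Irf4*, which acts at the kappa enhancers and in plasma cells, was at -3.94 and -3.89 (dim) against -0.37 and -2.73.

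Other lineages are given by their sums. The 10 LSK genes, including *Kit* and *Ly6a* of the sort gate, had sums of 116 and 125 in Meis1-KO and of 165 and 115 in Meis1-WT, with medians of -0.38 and -0.24. The 10 T lineage genes had sums of 0.47 and 0.81 against 0.61 and 1.17. The 12 granulocyte and monocyte genes had 185 and 141 against 199 and 76.3, and the 9 erythroid genes 99.7 and 246 against 87.7 and 23.7. The erythroid sum was nearly all *Hbb-b1*, at 6.55 and 7.93 against 6.30 and 4.46, and the list's median differences were 0.24 and 0.03. By the criteria, *Flt3* and *Hlf* of the LSK list and *Elane* of the granulocyte list were called lower, *Rhag* of the erythroid list was called higher, and 0 of 3 tested T lineage genes were called. Of all tested probes, 0.6% were called lower and 0.136% higher. The part of these cells in the kappa result was not tested.

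**Figure D5:**
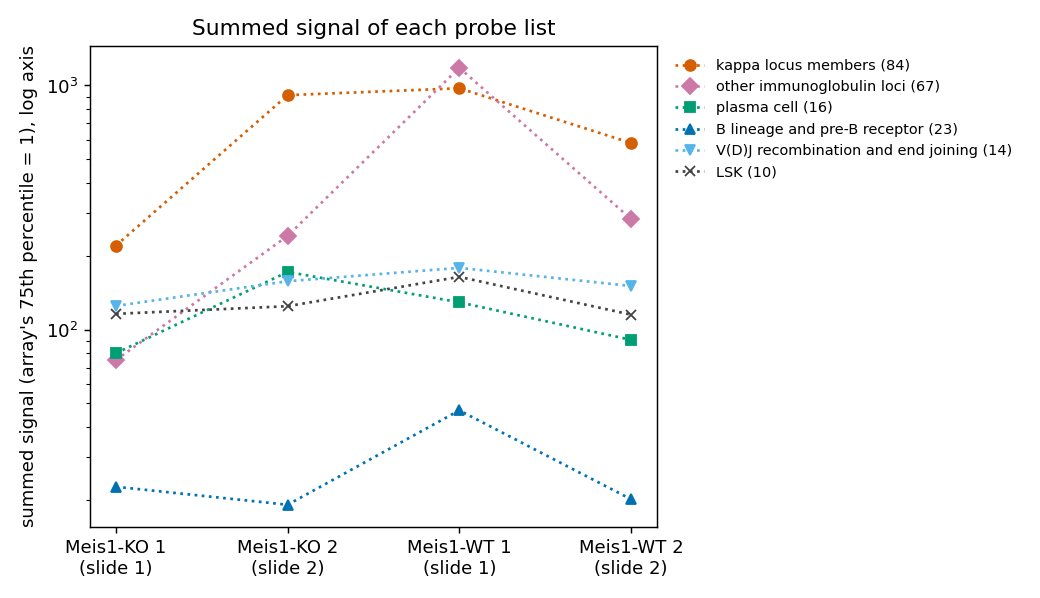
Summed signal of each probe list on each array (log axis, in units of the array's 75th percentile), with the number of probes or genes in brackets. The kappa locus is at 221 on the first Meis1-KO array, with 582 to 974 on the other arrays, and the plasma cell list is at 80.2 there, with 90.9 to 172 on the others.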

How the data were processed

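The authors deposited, for each of 4 one-color arrays, spot intensities from Feature Extraction 9.5.3.1 per the file headers (9.1 per the submitters' processing notes). Feature Extraction had subtracted the background and detrended each array, nothing was scaled between arrays, and dim spots carry a surrogate value. The authors had amplified 10 ng of RNA before labeling. The deposited series table held the same intensity values rounded. Positions and names are those of the array design on mm9, with names updated through the RefSeq table (GRCm38.p6), and no genome of that build was used.

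Control spots and spots with an outlier flag were dropped, the spots of each probe averaged, and the 75th percentile of every array subtracted on the log2 scale. Probes that either genotype had well above background on both its arrays were fitted on genotype alone with limma 3.58.1 in R 4.3.3, with Benjamini-Hochberg adjustment over 22006 probes. The fit was tested on simulated data. Summaries used Python 3.11.15. The slide, recorded with each array, is what pairs the replicate numbers, and same-numbered deviations correlated at 0.27 over tested probes and 0.06 over tested members.

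The members and gene lists were chosen with earlier results of these data known. Named were members past the criteria, the 10 largest falls, the 5 largest rises, the 5 with the highest signal in Meis1-KO, both ends of the interval and members that are not immunoglobulin by name. Other members are named to describe a family, a sequence or a window, after their values were seen. The number of arrays limits the precision, and p-values cover the spread between 2 pools. The alternatives were other scalings, background correction with normexp (offset 50), the series table, other filters, flagged spots kept, the slide as a block, an intensity trend, the methods' t-test, each array left out, 1 probe per gene name and members immunoglobulin by name; no scaling and dim spots at their bound were added after the data had been seen.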

Additional observations from a re-analysis of the deposited data

How the results depend on the processing

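Of the kappa probes, 4 were called lower by the criteria, and 1 with quantile scaling, 16 with no filter on dim probes, 20 with the slide as a replicate block, 0 by the methods' t-test, 7 with an intensity trend, 7 with no scaling and 3 to 32 with 1 array left out. The largest count came without the second Meis1-KO array, where 1.19% of all probes were called lower, and 8 were called without the second Meis1-WT array, against 0.332%. With 1 array left out, 1 genotype has a single array and the spread comes from the other genotype alone. A share of all probes is given here only for the main fit, the block and some fits with 1 array left out. Counts under the other alternatives, lower or higher, have no such share beside them and are not read as a result about the members. None was called higher, against 1 with median scaling, 2 with no filter, 1 with a filter on all 4 arrays, 1 with the block, 1 with the trend and 0 to 8 with 1 array left out, 8 without the first Meis1-KO array, where 2.32% of all probes were. The median difference of all 84 ran from -1.97 to 0.39 with 1 array left out, and that of the tested probes from -2.07 to 0.37, turning in direction only without the first Meis1-KO array. With normexp these medians were -0.26 and -0.42, against -0.71 and -0.85.

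Median differences of the lists moved too. For recombination genes (-0.19) they were -0.10 with median scaling, -0.27 with quantile scaling, 0.0082 with normexp, -0.56 with no scaling and -0.32 to -0.13 with 1 array left out. With no scaling, the regulators moved from -0.32 to -0.70 and the LSK genes from -0.27 to -0.65, while the regulators shrank to -0.10 with normexp and ran from -0.33 to -0.08 with 1 array left out, and the LSK genes from -0.36 to -0.14. The plasma cell list (-0.84) ran from -1.37 to 0.13 with 1 array left out, the last without the first Meis1-KO array. It shrank with a filter on all 4 arrays. With no scaling the B lineage, T lineage and granulocyte medians also fell further. Erythroid genes (-0.04) were at 0.0465 with median scaling, 0.0010 with quantile scaling, 0.27 with normexp, -0.42 with no scaling, 0.33 with a filter on all 4 arrays and -0.0072 to 0.943 with 1 array left out. The other immunoglobulin loci (-1.84) were at -1.16 with normexp and -2.87 to -0.93 with 1 array left out. The cause was not tested. The count of probes lower on both slides, 31, was 25 to 42. With normexp the medians of the B lineage, T lineage and granulocyte lists turned to 0.11, 0.30 and 0.09. With 1 array left out the T lineage ran from -0.95 to 0.36 and the granulocyte list from -1.37 to 1.10. The named probes that met the criteria or fell most kept their sign under each alternative, as did LOC100046496, IGKV8-16 and IGKV4-58, while IGKV4-51 was at -0.10 without the second Meis1-KO array, IGKV9-129 at -0.47 without the second Meis1-WT array, AF152371, LOC675735, LOC100047222, BC051162 and IGKV1-135 at 0.48, 0.40, 0.79, 0.37 and 0.98 without the first Meis1-KO array, NAP029125-1 at -0.52 without the second, and BC055911 at -0.13 without the second Meis1-WT array. NAP029125-1 and BC051162 turned also without the first Meis1-WT array, to -0.19 and 0.19, and IGKV1-135 and LOC100047222 without the second, to 0.54 and 0.02. By small amounts, LOC100047222 turned also with median scaling and NAP029125-1 with no scaling. The 3 cDNAs dim on all arrays had no direction. Low signal limits the 15 untested probes, whose dim values have no order.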
